A study of Mus musculus with 18 samples.

Results

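Mitosis genes are the genes whose products take a cell from G2 through chromosome separation to cytokinesis. The 39 described here were selected by gene symbol, as the rows of the deposited table that carry the symbols of a given list. All 39 were found among 26143 genes, and all 39 were among the 15206 genes that passed the filter on low values. In a dividing cell these transcripts accumulate in late S phase and G2, when B-MYB (encoded by Mybl2) and FOXM1 act on promoters that the DREAM repressor complex holds silent in resting cells. The cyclin B-CDK1 kinase then drives entry into mitosis, the spindle checkpoint delays separation until each kinetochore is attached, and the anaphase-promoting complex (APC/C) ends mitosis by marking cyclins and securin for destruction. In stratified squamous epithelium division is known to be largely a property of the basal layer.

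RNA was sequenced in 18 mouse libraries that the labels call squamous epithelium, and the series title speaks of head and neck tumours started with the carcinogen 4NQO. Wild type mice (WT) contributed esophagus, in 3 libraries, and tongue was used for the 3 mutant groups. The p53 group (3 libraries) carries heterozygous LSL-p53 R172H, a missense allele of the DNA-binding domain. The E20 group (6 libraries) carries LSL-PIK3CA H1047R, an activating allele of the PI3-kinase catalytic subunit, and the E20/p53 group (6 libraries) carries both alleles with K14-Cre. LSL marks an allele that stays off until Cre recombinase cuts out its stop element, and the K14 promoter directs Cre to basal keratinocytes. The labels name K14-Cre for the E20/p53 group alone. They do not say which libraries were tumour, how old the animals were, or whether libraries of a group came from separate animals. P-values rest on library-to-library spread pooled over all groups, and among like libraries that spread may be purely technical. The pooled spread also holds the gap between blocks of libraries inside E20 and inside E20/p53, described below. This bears on comparisons without those groups as well. WT is a different organ, so tissue and genotype cannot be told apart in any comparison with WT.

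Libraries held 14592044 to 18176060 counted reads. The E20 and E20/p53 libraries each fell into a block of replicates 1 to 3 and a block of replicates 4 to 6, so the 18 libraries form 6 blocks of 3. The members differed little inside a block, with a median coefficient of variation of 2.68% to 4.47%. Over all genes, libraries differed by 1.48 to 51.7 times sampling noise inside a block (chi-square per degree of freedom) and by 78.4 to 224 times between the 2 blocks of a group. The highest values inside a block, 43.6 and 51.7, were those of the third p53 library against the other two. No label defines these blocks, which were noticed in the values, and they are described without a test.

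The labelled tissue was checked with marker lists. Summed basal keratinocyte markers, with Krt5 and Krt14 as the defining pair, stood at 1430 to 1450 CPM (reads per 1000000 of the library's scaled total) in E20/p53 1 to 3, 404 to 446 in WT and 119 to 136 in E20 1 to 3. They stood at 24.6 to 39.8 CPM in the other 3 blocks, where Krt14 did not exceed 0.847 CPM. Krt5 was at most 0.201 CPM in those blocks and 0.12 CPM in WT. The basal sum of WT came mostly from the integrin gene Itga6 (306 to 344 CPM). Krt14 stood at 12.5 to 14 CPM in WT, 60 to 74.4 in E20 1 to 3 and 476 to 495 in E20/p53 1 to 3. Fibroblast markers summed to 8650 to 23300 CPM in p53, E20 and E20/p53 4 to 6, against 259 to 290 in E20/p53 1 to 3 and 1450 to 1570 in WT. The high sums came mostly from the collagen genes Col1a1, Col1a2 and Col3a1, and that of WT mostly from Col1a2 (1300 to 1420 CPM). Other markers of the list did not follow: Lum was at most 0.268 CPM in any library, and Thy1 stood at 116 to 137 in p53 and at most 0.745 elsewhere. Postn stood at 149 to 174 CPM in E20/p53 1 to 3 and 1640 to 1710 in 4 to 6, beside 169 to 189 in p53 and 52.5 to 63.4 in E20 4 to 6. Pdgfra stood at 47.6 to 52.5 CPM in E20/p53 1 to 3 and 60.1 to 69.9 in 4 to 6. Dcn went with the sums: it stood at 14.5 to 16.1 CPM in E20/p53 4 to 6, above 6.01 to 8.07 in E20/p53 1 to 3 and 1.86 to 3.13 in WT. Skeletal muscle markers summed to 2040 to 2190 CPM in p53, with the myogenic factors Myod1 at 149 to 157 and Myog at 113 to 126 CPM. They summed to 656 to 745 CPM in E20 and E20/p53 4 to 6, mostly from Des and Chrna1, with Myod1 at most 0.203 CPM in E20 and 8.56 to 9.95 in E20/p53 4 to 6. In WT and E20/p53 1 to 3 the sum was at most 6.9 CPM. Simple epithelial markers reached 271 to 288 CPM in WT and at most 12.3 elsewhere. The WT sum came mostly from Krt18 and Krt8, with Epcam at most 0.241 and Cdh1 at most 1.68 CPM there. Endothelial markers reached at most 4.73 CPM and leukocyte markers at most 22.9. Glia and neuron markers summed to 57.3 to 58.8 CPM in E20 1 to 3, 72 to 80.2 in E20/p53 4 to 6 and 4.87 to 11.2 elsewhere. Markers of differentiated squamous epithelium were low in every block: Krt4 was at most 0.112, Krt13 at most 2.48 and Ivl at most 1.61 CPM, and Krt10 stood at 4.81 to 10.5. Of the defining basal pair, Krt5 and Krt14 were both at or near 0 in p53, E20 4 to 6 and E20/p53 4 to 6, and Krt5 was near 0 in WT as well. A higher mitosis signal in bulk RNA from more dividing cells cannot be told apart from more RNA per dividing cell, and the part of cell type in the results below was not tested.

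Promoters of mitosis genes are known for the CHR element, bound by DREAM and B-MYB complexes, and for CCAAT boxes bound by NF-Y. RefSeq windows for build GRCm38.p6, from 250 bases before to 50 bases after a gene's start, matched 33 of the 39 members. The letters TTTGAA of the CHR, read on both strands, occurred in 25 of the 33 (75.8%) and in 5466 of the windows of 27025 genes. CCAAT, also on both strands and free to overlap a CHR, occurred in 24 (72.7%) against 41.1%, and both motifs in 21 (63.6%) against 7.97%. The E2F core GCGGGAA occurred in 0 of the 33 windows and in 5.29% of all. The 120 bases before the start are shown for 4 members with a motif and for the 2 members that differed most between E20/p53 and E20, whose windows hold neither. These 6 were chosen after their values were seen. Each is written 5′ to 3′ on the gene's strand, with a CHR (TTTGAA or its complement TTCAAA) or a CCAAT box (CCAAT or ATTGG) in capitals.
Top2a, chr11:99024190-99024309, minus strand: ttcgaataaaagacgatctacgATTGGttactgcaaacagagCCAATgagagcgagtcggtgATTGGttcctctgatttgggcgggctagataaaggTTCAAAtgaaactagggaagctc
Kif11, chr19:37376262-37376381, plus strand: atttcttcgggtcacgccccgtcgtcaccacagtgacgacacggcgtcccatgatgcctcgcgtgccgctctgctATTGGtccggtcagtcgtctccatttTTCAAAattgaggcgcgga
Aurka, chr2:172370571-172370690, minus strand: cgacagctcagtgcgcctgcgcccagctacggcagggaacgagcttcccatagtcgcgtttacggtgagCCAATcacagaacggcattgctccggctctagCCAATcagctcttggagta
Plk1, chr7:122159315-122159434, plus strand: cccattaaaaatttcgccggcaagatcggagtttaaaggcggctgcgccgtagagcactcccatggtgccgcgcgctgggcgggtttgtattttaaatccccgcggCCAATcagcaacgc
Nusap1, chr2:119618178-119618297, plus strand: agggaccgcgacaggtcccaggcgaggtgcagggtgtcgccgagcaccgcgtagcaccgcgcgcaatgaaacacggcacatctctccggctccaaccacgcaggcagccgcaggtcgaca
Mybl2, chr2:163054515-163054634, plus strand: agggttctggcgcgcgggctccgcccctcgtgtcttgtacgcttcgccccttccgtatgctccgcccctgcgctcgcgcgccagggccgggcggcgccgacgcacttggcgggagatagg
In Top2a and Kif11 a CHR lies 23 and 19 bases before the start, downstream of CCAAT boxes. In Aurka and Plk1 the CHR letters fall 33 and 31 bases after the start, outside the stretch shown. Birc5, Mad2l1 and Nuf2 are the other members with neither motif in the window.

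The first comparison asks how tongue with both alleles differed from tongue with the PIK3CA allele alone. Mitosis genes were mostly higher in E20/p53 than in E20, by small amounts. Of the 39, 24 were called higher, where 23% of all genes tested were, and 2 lower, where 19.7% were (limma, Benjamini-Hochberg adjusted p under 0.05). The members' median log2 difference was 0.33, with a range of -0.28 to 0.72, beside 0.05 over all genes tested, and none reached 2-fold. All E20/p53 libraries lay above all E20 libraries for 17 members, where 11.3% of all genes did so, and below them for 1 member, where 11.3% did so as well. Summed over the 39, the members made up 4883 to 5273 CPM in E20 and 5577 to 6998 CPM in E20/p53.

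**Figure D1:**
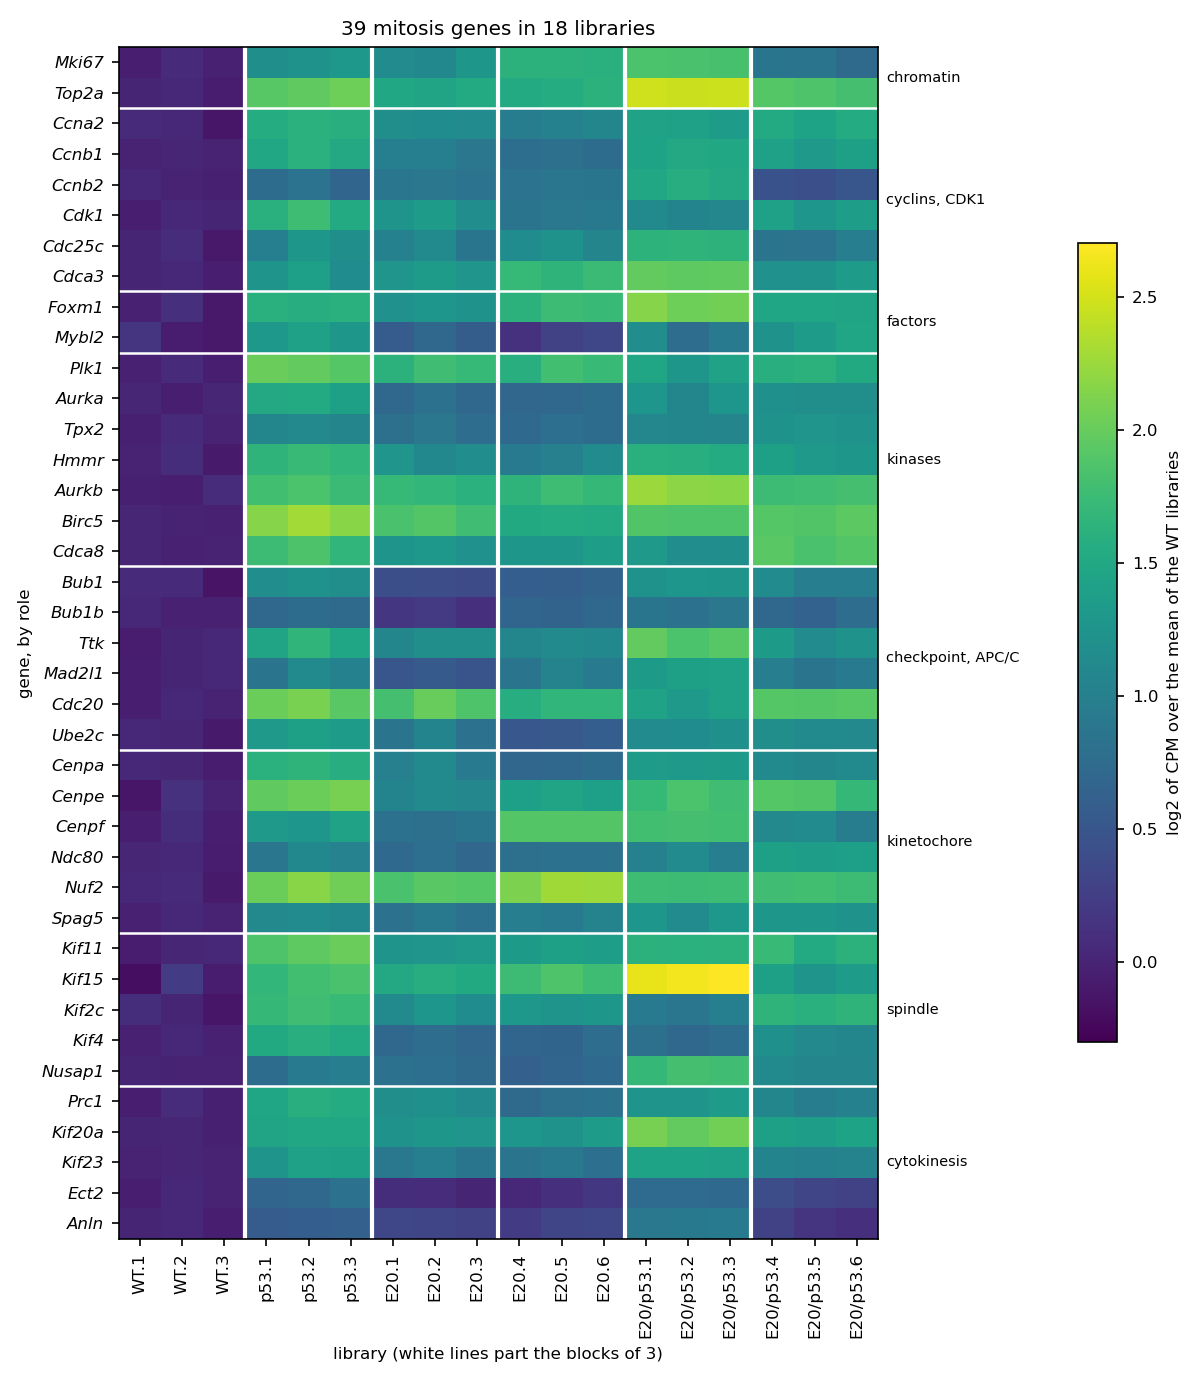
Levels of the 39 mitosis genes in the 18 libraries, as log2 of CPM over the mean of WT, with members in rows by role and libraries in columns by group and block. The WT block has the lowest mean for every member, libraries of a block look alike, and E20/p53 1 to 3 and 4 to 6 differ for members such as Kif15, Ccnb2 and Mki67.

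Among the transcription factors of the G2/M programme, Mybl2 rose and Foxm1 was not called. Mybl2 ranged from 17.4 to 26.0 CPM in E20 with a median of 21.8, and from 27.2 to 43.7 with a median of 36.6 in E20/p53. The groups did not overlap, and the mean of E20/p53 was 1.64-fold higher (log2 0.72 ± 0.12 SE, limma adjusted p 0.00018). Foxm1 ranged from 130 to 189 CPM in E20 and from 152 to 248 in E20/p53, with overlap (log2 0.30 ± 0.14, adjusted p 0.10). Its difference was -0.01 without E20/p53 1 to 3, the block in which it was highest.

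Of the 6 mitotic cyclins, CDK1 and its activators, Ccnb1 and Ccna2 rose, and 4 were not called. Ccnb1, which encodes cyclin B1, the partner that brings CDK1 into mitosis, stood at 87.6 to 103 CPM in E20, with a median of 92.9. In E20/p53 it stood at 129 to 147 CPM, with a median of 139, above every E20 library (1.47-fold, log2 0.56 ± 0.05, limma adjusted p 7e-07). A copy annotated as the pseudogene Ccnb1-ps held 26.1 to 84.1 CPM, so reads of the pair may be split between them. Ccna2, cyclin A2 of S phase and G2, averaged 216 ± 10.2 CPM (SD, n = 6) in E20/p53 and 168 ± 10.2 CPM (n = 6) in E20 (1.28-fold, adjusted p 5.5e-05). Cdk1 ranged from 192 to 270 CPM in E20 and from 220 to 284 in E20/p53, with overlap (log2 0.15 ± 0.10, adjusted p 0.21). Its sign turned to -0.03 without E20 4 to 6. Ccnb2, the phosphatase gene Cdc25c and Cdca3 had log2 differences of 0.12 to 0.19 and were not called.

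Mki67, the proliferation marker Ki-67 that coats mitotic chromosomes, did not separate the groups. It ranged from 339 to 487 CPM in E20 (median 432) and from 262 to 570 CPM in E20/p53 (median 424), with a log2 difference of -0.07 ± 0.20 (limma adjusted p 0.80). The E20/p53 values fell into 559 to 570 in libraries 1 to 3 and 262 to 288 in libraries 4 to 6, on either side of E20. Without E20/p53 1 to 3 the difference was -0.58 (adjusted p 0.00075), and without E20/p53 4 to 6 it was 0.44 (adjusted p 0.0036). Top2a, the topoisomerase that untangles sister chromatids, was higher in all 6 E20/p53 libraries, at 618 to 979 CPM (median 813) against 482 to 543 (median 507) in E20. That difference was 1.55-fold (log2 0.63 ± 0.12, adjusted p 0.0004).

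Mitotic kinases and their partners gave 5 calls higher and 1 lower among 7. Aurka, the Aurora A kinase of the centrosome, stood at 85.4 to 93.5 CPM in E20 (median 87.3) and 112 to 129 in E20/p53 (median 122), without overlap (1.38-fold, log2 0.47 ± 0.05, limma adjusted p 6.2e-07). Tpx2, which activates Aurora A on spindle microtubules, averaged 304 ± 19.1 CPM in E20/p53 and 235 ± 9.36 in E20 (1.29-fold, adjusted p 2e-05). Hmmr, Aurkb and Birc5 rose by 1.15-fold to 1.27-fold, and of the chromosomal passenger subunits Aurkb and Birc5 the groups overlapped. Plk1, the Polo-like kinase of mitotic entry and exit, fell: it stood at 113 to 130 CPM in E20 (median 123) and 91.2 to 116 in E20/p53 (median 106). The groups overlapped, the fall was 1.16-fold (log2 -0.21 ± 0.06, adjusted p 0.0085), and without E20/p53 1 to 3 it was -0.12 with an adjusted p of 0.063. Cdca8, the borealin subunit of the passenger complex, was not called, with 66.0 to 72.8 CPM in E20/p53 1 to 3 and 105 to 112 in E20/p53 4 to 6 around 68.2 to 75.8 in E20.

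Of 6 spindle checkpoint and APC/C genes, 5 rose. Bub1, the checkpoint kinase at kinetochores, stood at 74.4 to 89.0 CPM in E20 (median 80.5) and 112 to 137 in E20/p53 (median 130), 1.55-fold higher without overlap (log2 0.63 ± 0.07, limma adjusted p 3.1e-06). Ube2c, the ubiquitin-conjugating enzyme of the APC/C, averaged 134 ± 3.02 CPM in E20/p53 and 100 ± 15.2 in E20 (1.34-fold, adjusted p 0.00039). Exons of the muscle troponin gene Tnnc2 cover 22.8% of the exon bases of Ube2c on the opposite strand, and Tnnc2 held 0.272 to 10.5 CPM. Bub1b, Ttk and Mad2l1 rose by 1.29-fold to 1.37-fold, each with overlap between the groups. Cdc20, the APC/C activator that the checkpoint restrains, had a log2 difference of -0.11 (adjusted p 0.43).

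At the centromere and kinetochore, 4 of 6 rose and Nuf2 fell. Cenpe, the kinetochore motor that moves chromosomes to the spindle equator, stood at 86.5 to 114 CPM in E20 (median 101) and 136 to 157 in E20/p53 (median 148), without overlap (1.47-fold, log2 0.56 ± 0.08, limma adjusted p 2.5e-05). Spag5, the astrin of spindle and kinetochore, averaged 122 ± 5.00 CPM against 97.0 ± 5.73 (1.26-fold, adjusted p 3.7e-05). Cenpa, the histone H3 variant that marks centromeres, and Ndc80, which binds microtubules, rose by 1.28-fold and 1.36-fold. Nuf2, the partner of NDC80 in the same complex, stood at 97.8 to 132 CPM in E20 (median 111) and at 92.0 to 94.6 in E20/p53 (median 93.0). It was the member with all E20/p53 libraries below E20 (log2 -0.28 ± 0.07, adjusted p 0.0048), and without E20 4 to 6 the difference was -0.12 with an adjusted p of 0.062. Cenpf, another outer kinetochore protein, was not called (log2 0.08 ± 0.23), with 202 CPM in each library of E20 4 to 6 and 95.4 to 99.3 in E20 1 to 3.

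Spindle motors and microtubule proteins gave 3 calls higher among 5. Nusap1, which bundles spindle microtubules, stood at 65.3 to 75.0 CPM in E20 (median 70.3) and 88.9 to 149 in E20/p53 (median 115), without overlap (1.62-fold, log2 0.70 ± 0.13, limma adjusted p 0.00041). Kif11, the kinesin that pushes spindle poles apart, averaged 143 ± 6.34 CPM against 116 ± 4.58 (1.23-fold, adjusted p 7.2e-05). Kif4, a chromokinesin, rose by 1.18-fold with overlap, while Kif15 and Kif2c were not called. Of 5 genes of the central spindle and cytokinesis, Ect2, Kif23 and Kif20a rose and Prc1 and Anln were not called. Exons of Cdc23, an APC/C subunit, cover 29.3% of the exon bases of Kif20a on the opposite strand. Cdc23 held 46.1 to 97.7 CPM and, like Kif20a, was highest in E20/p53 1 to 3. Ect2, the exchange factor that activates RhoA at the division plane, stood at 111 to 153 CPM (median 136) against 92.1 to 104 (median 96.8), without overlap (1.37-fold, log2 0.45 ± 0.08, adjusted p 0.00037). Kif23, the kinesin of centralspindlin, averaged 127 ± 19.3 CPM against 99.3 ± 4.93 (1.27-fold, adjusted p 0.0032).

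**Figure D2:**
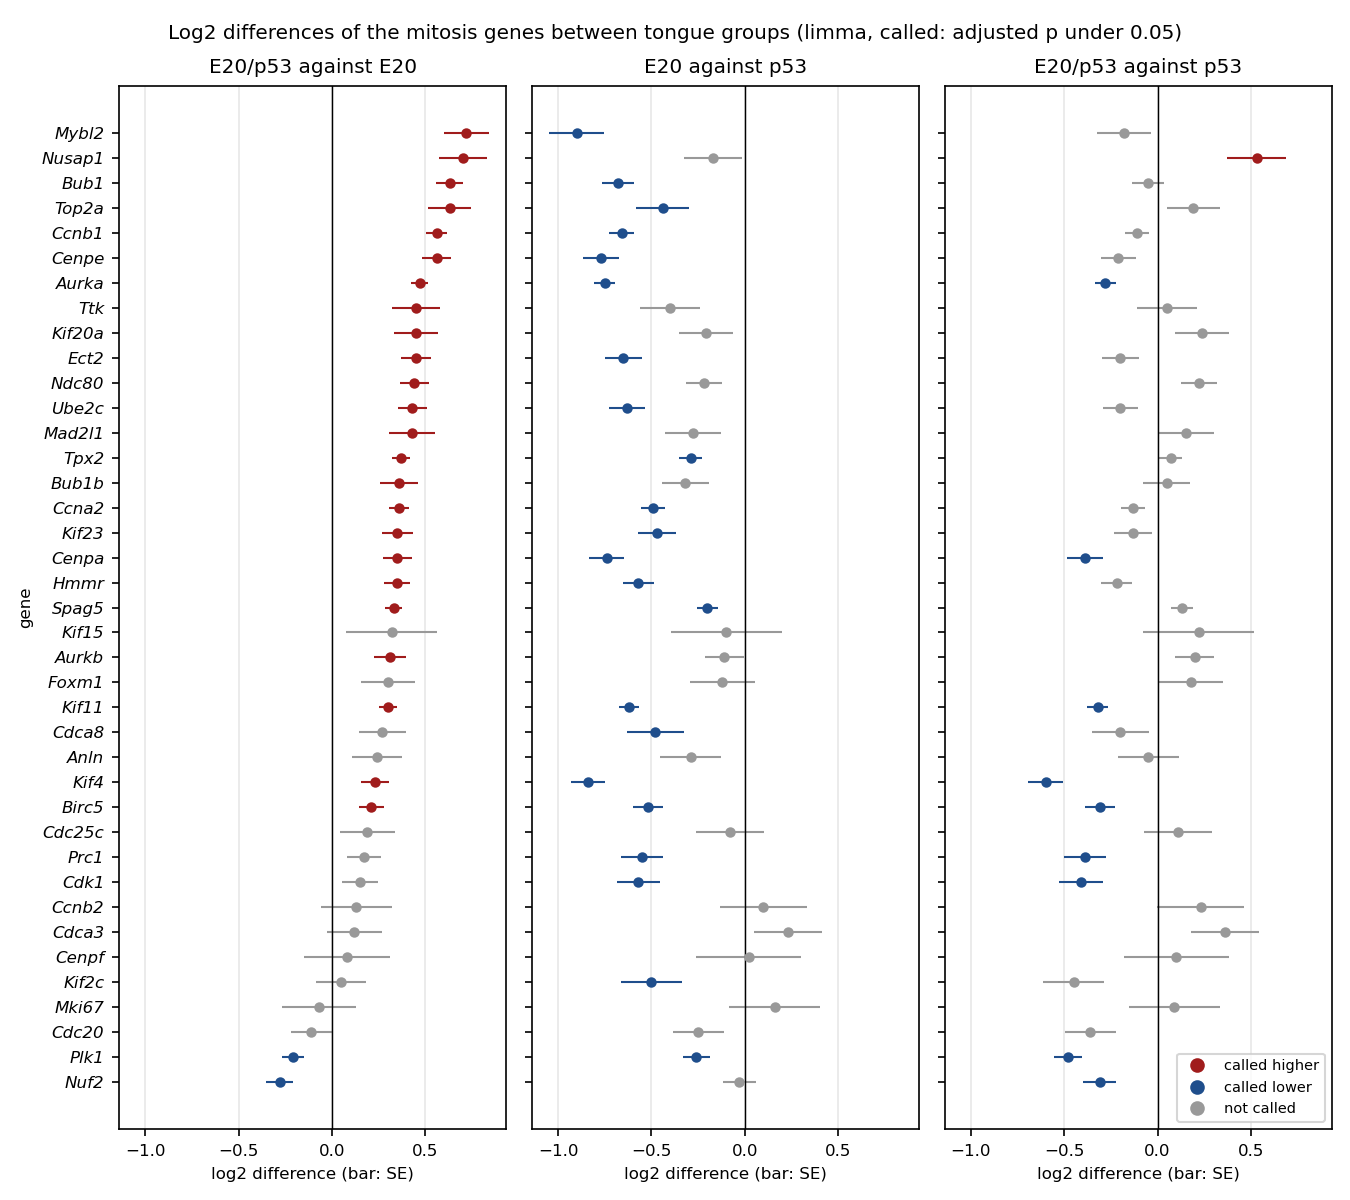
Log2 differences of the 39 members in the 3 comparisons among tongue groups, with points for the fitted difference and bars for its standard error. Most members lie above 0 in E20/p53 against E20 and below 0 in E20 against p53, while in E20/p53 against p53 they lie on either side of 0.

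Leaving out each of the 4 blocks of E20 and E20/p53 in turn gave 23 to 30 members called higher, and 18 of the 24 were called in all 4 fits. The other 6 were Birc5, Bub1b, Kif4, Aurkb, Ttk and Mad2l1. With each block averaged to 1 value, limma called 0 genes of all tested and 0 members. At an unadjusted p under 0.05 were 971 genes (6.39%) and 1 member (Bub1).

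Against tongue with the p53 allele alone, the number of E20/p53 members called, and the split by direction, depended on the fit and the block. By limma over all libraries, Nusap1 was the 1 member called higher (12.9% of all genes tested were), and 9 members were called lower (12.9% of all genes). Voom with sample weights called 15 higher and 16 lower, near the 39.2% and 39% of all genes that it called. Of 8 skeletal muscle markers, 7 were called lower in E20/p53 than in p53 (median log2 -6.47), and their part in the result was not tested. The median log2 difference was -0.11, with a range of -0.60 to 0.53, beside 0.02 over all genes. Without overlap, 1 member lay higher (15.9% of all genes) and 15 lower (16.6%). Kif4, which shapes the anaphase midzone, stood at 138, 144 and 139 CPM in the p53 libraries and at 79.0 to 111 in E20/p53 (median 92.6), 1.52-fold lower (log2 -0.60 ± 0.09, limma adjusted p 0.00021). Plk1 stood at 151, 148 and 141 CPM in p53, above the 91.2 to 116 of E20/p53 (log2 -0.48 ± 0.07, adjusted p 0.0002). The other members called lower were Cdk1, Cenpa, Prc1, Kif11, Nuf2, Birc5 and Aurka, with log2 differences of -0.41 to -0.28. Kif2c, the microtubule depolymerase of the centromere, had a log2 difference of -0.45 and an adjusted p of 0.051. Nusap1 stood at 72.0, 81.6 and 83.7 CPM in p53, below every E20/p53 library (1.44-fold, log2 0.53 ± 0.16, adjusted p 0.021), and its adjusted p was 0.10 without the first p53 library and 0.058 without the second. Cdca3 and Kif20a had differences of 0.36 and 0.24 that were not called. Without E20/p53 4 to 6, 13 members were called higher and 13 lower, near the 31.2% and 32.7% of all genes. Without E20/p53 1 to 3, 3 were called higher and 17 lower, beside 18% and 16.2% of all genes. Without the second p53 library 5 were called lower, and without the third E20/p53 library 2 were called higher. The shares over all genes are not given for those fits. Exons of Pdzd11 cover 15.1% of the exon bases of Kif4 on the other strand, and Pdzd11 held 53.7 to 89.5 CPM.

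Tongue with the PIK3CA allele alone had lower mitosis transcripts than tongue with the p53 allele alone. None of the 39 was called higher in E20 (14.5% of all genes tested were) and 22 were called lower (16.5% of all genes), by limma. Of the 8 skeletal muscle markers, 6 were called lower as well (median log2 -5.87), and their part in the result was not tested. No member was higher at an unadjusted p under 0.05 (0), and voom with sample weights also called 0 higher. With 1 value per block, 0 members were called and 3 were lower at an unadjusted p under 0.05. Of all genes tested, 4.1% passed that limit in either direction. The median log2 difference was -0.40, with a range of -0.90 to 0.23, beside -0.01 over all genes. Without overlap, 0 members lay higher (21.8% of all genes) and 27 lower (23.8%). Mybl2 stood at 39.2, 42.3 and 38.9 CPM in p53 and at 17.4 to 26.0 in E20, 1.86-fold lower (log2 -0.90 ± 0.15, adjusted p 0.00023). Kif4 stood at 76.0 to 82.0 CPM in E20, below the 138 to 144 of p53 (1.78-fold, log2 -0.84 ± 0.09, adjusted p 6.2e-06). Cenpe stood at 163, 170 and 177 CPM in p53 and at 86.5 to 114 in E20 (1.70-fold lower, log2 -0.77 ± 0.09, adjusted p 1.4e-05). The 3 most positive values were those of Cdca3 (0.23), Mki67 (0.16) and Ccnb2 (0.10), and none of them was called. Of the 22, 18 were called with each of the 4 blocks left out in turn, the exceptions being Top2a, Cdca8, Spag5 and Kif2c. Those 4 fits called 15.4% to 26.7% of all genes lower.

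The comparisons of E20/p53 and of p53 with E20 share the E20 libraries, so their values are set side by side only. Ccnb1 averaged 94.8 ± 7.16 CPM in E20 (n = 6), 139 ± 6.80 in E20/p53 (n = 6) and 150 ± 7.02 in p53 (n = 3), and the last 2 overlapped. Aurka averaged 88.4 ± 2.91, 122 ± 6.10 and 149 ± 6.65 CPM in the same order, without overlap between neighbours. Bub1 averaged 81.0 ± 6.73, 126 ± 11.5 and 130 ± 3.88 CPM, with E20/p53 and p53 overlapping. Top2a averaged 508 ± 20.9 CPM in E20, 691 ± 27.1 in p53 and 806 ± 183 in E20/p53, with the p53 libraries inside the range of E20/p53.

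Wild type esophagus had the lowest mean of the 6 blocks for each of the 39 members. In p53 tongue 39 members were called higher (29.3% of all genes tested) and 0 lower (24.8%), with a median log2 difference of 1.52 and a range of 0.60 to 2.20, beside 0.04 over all genes. In E20 tongue 37 were called higher (29% of all genes) and 0 lower (26.2%), with a median of 1.08 beside 0.04. In E20/p53 tongue 39 were called higher (26.6% of all genes) and 0 lower (21.5%), with a median of 1.33 beside 0.05. A shift of all genes by scaling bears on these values: with library medians made equal, the median of all genes moved by -0.102, -0.151 and -0.095, and those of the members were 1.42, 0.93 and 1.23. The 0 members called lower in these comparisons were 0 as well at an unadjusted p under 0.05 and by voom. With library medians made equal, 41.9% of the calls over all genes in E20 against WT were in the higher direction, beside 52.5% as deposited.

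Nuf2 and Birc5 had the largest differences of p53 from WT. Nuf2 stood at 27.9, 28.4 and 25.7 CPM in WT and at 111, 123 and 113 in p53 (4.23-fold, log2 2.08 ± 0.10, limma adjusted p 1.2e-10). Birc5, survivin of the passenger complex, stood at 38.3, 37.7 and 36.9 CPM in WT and at 168, 184 and 169 in p53 (4.61-fold, adjusted p 2.1e-11). Cenpe was 4.06-fold higher in p53. In E20 against WT the largest were those of Nuf2 (4.15-fold), Cdc20 (3.40-fold) and Plk1 (3.26-fold), and in E20/p53 against WT those of Top2a (4.49-fold), Kif15 (3.99-fold) and Aurkb (3.98-fold).

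Ect2, Anln and Bub1b had the smallest differences from WT. Ect2 stood at 88.2, 94.3 and 91.5 CPM in WT and at 92.1 to 104 in E20, with overlap (log2 0.09 ± 0.10, limma adjusted p 0.48), a sign that turned to -0.06 with library medians made equal. Anln, the anillin scaffold of the contractile ring, stood at 208, 210 and 199 CPM in WT and at 241 to 260 in E20 (log2 0.31 ± 0.16, adjusted p 0.12). Bub1b, the checkpoint protein BUBR1, averaged 121 ± 23.9 CPM in E20 and 89.3 ± 2.45 in WT (log2 0.42 ± 0.13, adjusted p 0.01), and 0.16 with an adjusted p of 0.059 without E20 4 to 6. In p53 and E20/p53 these 3 genes were called higher, by 1.45-fold to 1.72-fold. With 1 value per block, 0 members were called in the comparisons with WT, and 28, 25 and 33 members had an unadjusted p under 0.05 in p53, E20 and E20/p53. Of all genes tested, 10.7%, 13.6% and 10.3% had one, counting either direction.

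**Figure D3:**
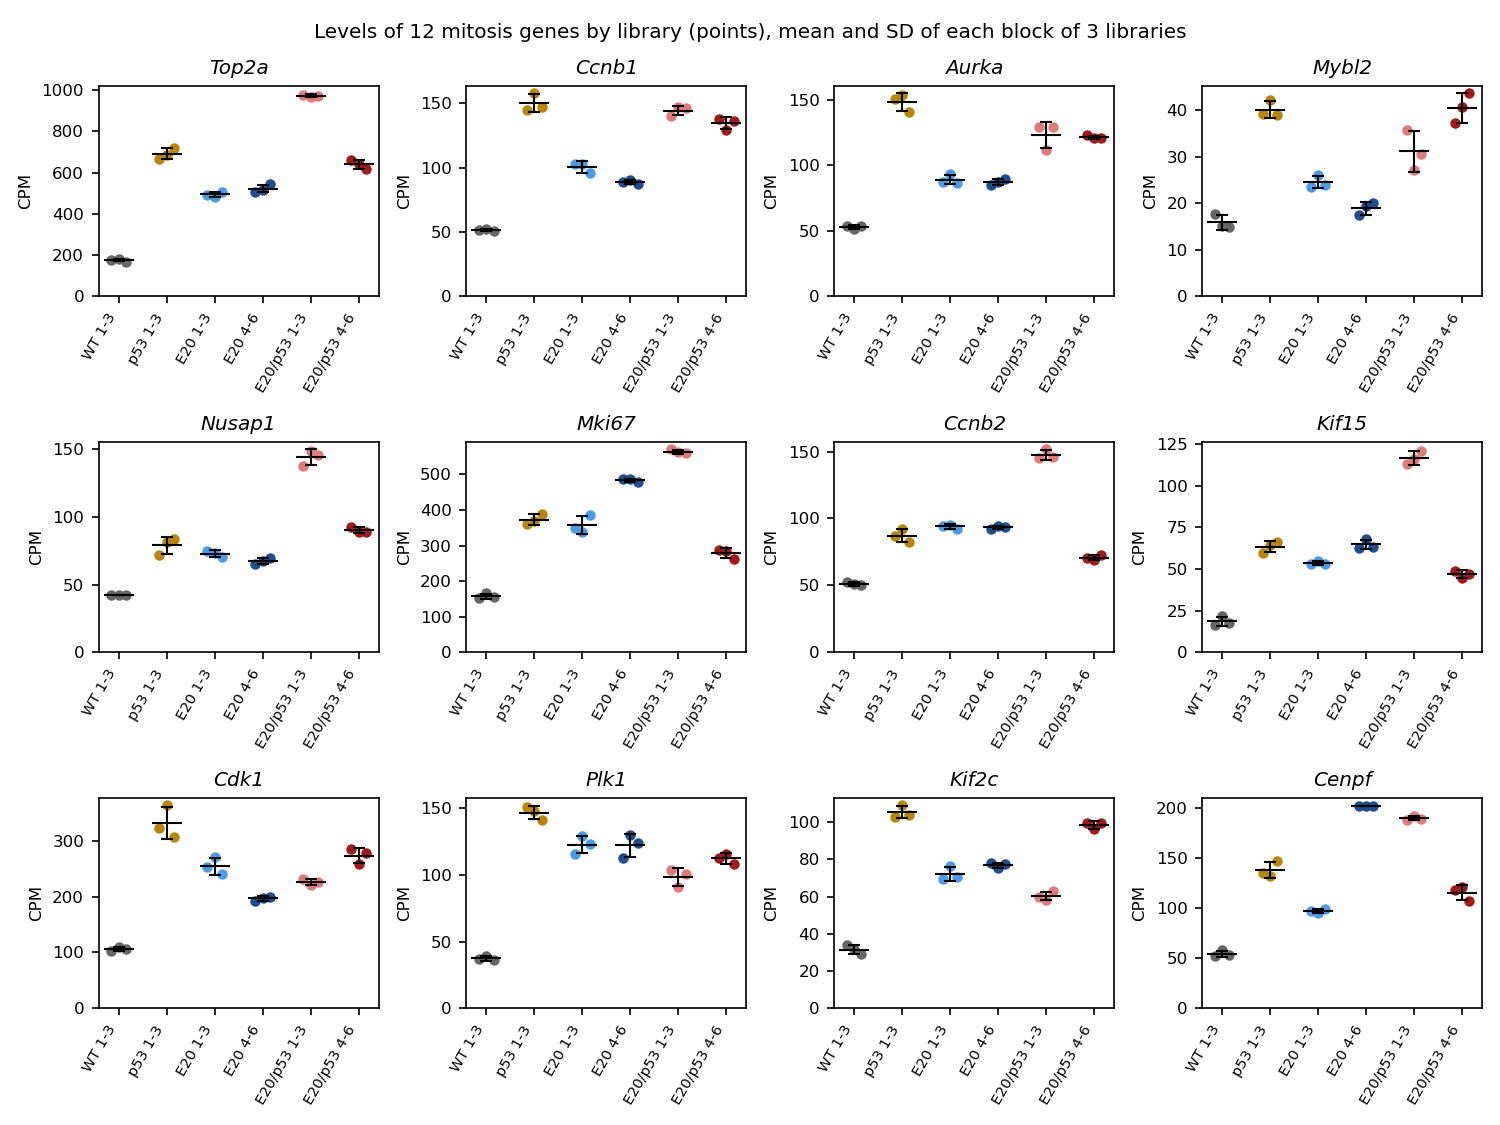
Levels in CPM of 12 mitosis genes in each library, grouped by block, with a point for each library and black bars for the block mean and SD. WT points are the lowest, and in E20/p53 the blocks 1 to 3 and 4 to 6 lie apart for Mki67 and Top2a and together for Ccnb1 and Aurka.

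The block with the highest mean was p53 for 16 members, E20/p53 1 to 3 for 16, E20/p53 4 to 6 for 5 and E20 4 to 6 for 2. Ccnb1, Cdk1, Plk1, Aurka and Ube2c were among those highest in p53, and Mki67, Top2a, Foxm1, Bub1 and Kif20a among those highest in E20/p53 1 to 3. The 5 highest in E20/p53 4 to 6 were Mybl2, Tpx2, Cdca8, Ndc80 and Spag5.

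Inside E20/p53 the members did not move as a unit between the blocks. In E20/p53 1 to 3, 12 members were at least 1.5 times as high as in 4 to 6 by the ratio of geometric means. That share (30.8%) lay near the 24.9% of all genes tested. The 12 were Kif15 (2.48 times), Ccnb2 (2.09), Mki67 (2.02), Cdc25c, Cenpf, Anln, Cdca3, Ttk, Nusap1, Kif20a, Foxm1 and Top2a (1.52). Kif2c (1.63 times) and Cdca8 (1.58 times) were higher in 4 to 6 (5.13%, beside 24.3% of all genes), and 25 members (64.1%) lay between these limits, beside 50.8% of all genes tested. Kif15, a kinesin that backs up Kif11 in spindle assembly, stood at 113, 116 and 121 CPM in libraries 1 to 3 and at 49.0, 44.4 and 47.3 in libraries 4 to 6. Ccnb2, cyclin B2, stood at 145, 152 and 146 CPM and at 70.4, 69.3 and 72.9. Ccnb1, by contrast, differed by 1.07 times between the blocks, Ube2c by 1.02 times and Aurka by 1.01 times. Summed keratinocyte markers were high and summed fibroblast and muscle markers low in libraries 1 to 3, though Postn and Pdgfra were not low there, as given above. The part of these markers in the ratios was not tested. Inside E20, 38 members (97.4%, beside 68.3% of all genes) lay within 1.5 times, and Cenpf was 2.08 times as high in 4 to 6.

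**Figure D4:**
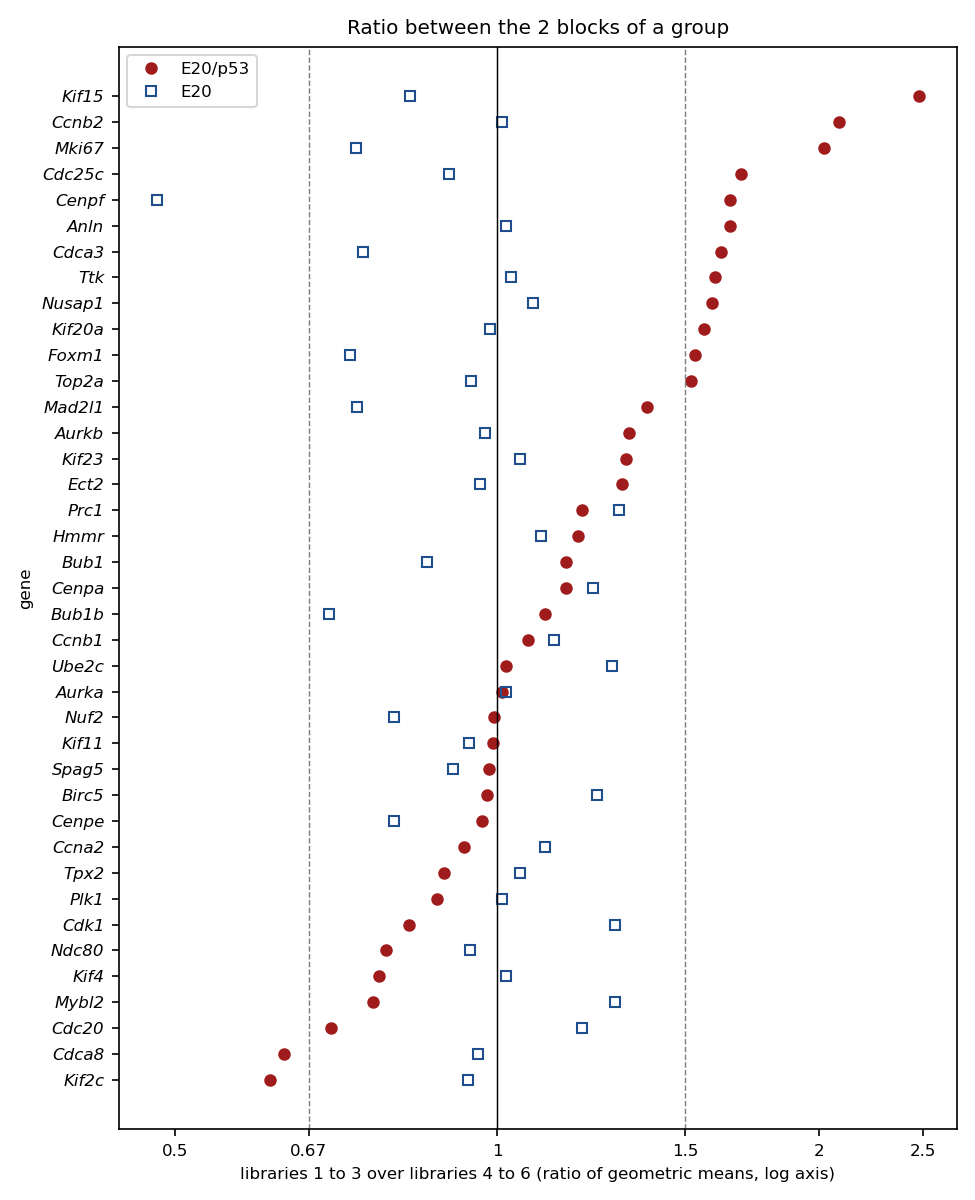
Ratio of the geometric means of replicates 1 to 3 over replicates 4 to 6 for each member, inside E20/p53 and inside E20, on a log axis with lines at 1 and at 1.5 times in each direction. The E20/p53 ratios run from 0.614 (Kif2c) to 2.48 (Kif15), and those of E20 from 0.481 (Cenpf) to 1.30.

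Other genes of mitosis, taken from a wider list of 114 that were all tested, were counted in the same way. In E20/p53 against E20, 67 (58.8%) were called higher and 6 (5.26%) lower, beside 23% and 19.7% of all genes, with a median log2 difference of 0.29. In E20/p53 against p53, 8 (7.02%) were higher and 17 (14.9%) lower, beside 12.9% of all genes in each direction, so the lower calls lay near the share over all genes. In E20 against p53, 4 (3.51%) were higher and 58 (50.9%) lower, beside 14.5% and 16.5%. Against WT, 94 (82.5%) were higher and 3 lower in p53, 83 (72.8%) and 3 in E20, and 98 (86%) and 2 in E20/p53. Of all genes, 29.3%, 29% and 26.6% were higher and 24.8%, 26.2% and 21.5% lower. Condensin and sister chromatid cohesion genes gave 13 higher and 0 lower of 19 in E20/p53 against E20. Sgo1, the shugoshin that protects centromeric cohesion, averaged 67.2 ± 5.19 CPM in E20/p53 and 40.9 ± 1.97 in E20 (1.64-fold, limma adjusted p 1.1e-07), without overlap. Of 33 further kinetochore and centromere genes 19 rose, among them Cenpq (1.66-fold) and Mis18a (1.54-fold), which helps load CENP-A, and 0 fell. Of 32 spindle, centrosome and cytokinesis genes 23 rose and 2 fell, with the centriole duplication gene Stil at 1.63-fold and the kinesin Kif18a at 1.57-fold.

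The fall of Psrc1, a spindle microtubule protein, was larger than any difference among the members in that comparison. Psrc1 stood at 82.8 to 92.4 CPM in E20 1 to 3, 40.4 to 41.6 in E20 4 to 6, 11.8 to 13.5 in E20/p53 1 to 3 and 4.53 to 5.66 in E20/p53 4 to 6 (log2 -2.90 ± 0.30, limma adjusted p 1.5e-06). The 2 groups did not overlap, and p53 stood at 14.2 to 17.7 CPM. Ckap2, a spindle protein, also fell, with overlap (log2 -0.52 ± 0.17, adjusted p 0.02). Of 15 regulators of CDK1 and mitotic entry, 8 rose and 1 fell. Pkmyt1, the kinase that holds CDK1 inactive, rose by 1.61-fold, and Bora, the Aurora A cofactor that activates PLK1, by 1.35-fold. Gtse1, a microtubule protein of G2, fell with overlap (log2 -0.56 ± 0.15, limma adjusted p 0.0075). It stood at 122 to 132 CPM in E20 1 to 3 and 54.1 to 61.8 in E20/p53 1 to 3. In libraries 4 to 6 it stood at 79.4 to 84.3 CPM in E20 and 79.3 to 85.4 in E20/p53. Of 15 APC/C and mitotic exit genes, 4 (26.7%) rose and 3 (20%) fell, near the 23% and 19.7% of all genes, among them Anapc1 (log2 0.36), Anapc5 (0.20), Anapc2 (-0.16) and Fzr1 (-0.23).

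Genes of DNA replication, the phase before, were counted beside them. Of 41, 25 (61%) were higher and 0 lower in E20/p53 against E20, beside 23% and 19.7% of all genes. In E20/p53 against p53, 2 (4.88%) were higher and 7 (17.1%) lower, beside 12.9% of all genes in each direction. The lower calls thus lay near the share over all genes. In E20 against p53, 0 were higher and 28 (68.3%) lower, beside 14.5% and 16.5%. The counts of 0 in these lists and in those of cohesion and the kinetochore were 0 also at an unadjusted p under 0.05. Of 18 E2F, RB and DREAM genes, 8 rose and 1 fell in E20/p53 against E20, beside 23% and 19.7% of all genes. E2f3 rose by 1.54-fold and E2f4 by 1.38-fold. Lin37, a subunit of the DREAM core, fell from 14.5 ± 1.59 to 11.5 ± 0.614 CPM (log2 -0.32 ± 0.09, limma adjusted p 0.0065). Nfya, the DNA-binding subunit of NF-Y, rose 1.78-fold (117 ± 8.51 against 65.7 ± 6.81 CPM, adjusted p 7.8e-08), 1 of 3 NF-Y genes called. In the promoter windows, 13 of 25 members with a CHR were called higher and 1 lower in E20/p53 against E20, with a median log2 difference of 0.30. Of the 8 without one, 7 were called higher and 1 lower, with a median of 0.56.

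CDK inhibitors hold cells out of the cycle. Of 6, 1 rose and 2 fell in E20/p53 against E20, beside 23% and 19.7% of all genes. Cdkn1a, which encodes p21, a known target of wild type p53, stood at 547 to 598 CPM in E20 1 to 3 and 169 to 173 in E20 4 to 6. It stood at 6.39 to 7.25 CPM in E20/p53 1 to 3 and 57.5 to 65.0 in E20/p53 4 to 6 (log2 -3.92 ± 0.63, limma adjusted p 0.00013), without overlap between the groups. The p53 libraries held 223 to 232 CPM and WT held 4.77 to 5.40. Cdkn2a, which encodes p16 and ARF, averaged 259 ± 128 CPM in E20/p53 (range 138 to 383) and 21.8 ± 5.38 in E20 (10.8-fold, adjusted p 8e-08). It averaged 236 ± 5.81 CPM in p53 and 288 ± 22.3 in WT. Neither p53 nor E20/p53 was called different from WT (limma adjusted p 0.56 and 0.46), so E20 alone was low. Cdkn2c fell from 40.4 ± 1.96 to 26.3 ± 1.43 CPM (adjusted p 1.5e-06). The differences of Cdkn1a, Cdkn2a and Cdkn2c between E20/p53 and E20 lay without overlap, and with 1 value per block none was called.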

How the data were processed

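Per the labels' protocols, the 18 libraries came from the TruSeq Stranded mRNA LT kit. Per the submitters' processing notes, the tools were bcl2fastq 1.8.4, Trimmomatic and featureCounts, and the build was mm10. Not given in the sources used here were the aligner, the annotation, the strand setting of the counting and the scaling method. The deposited table is named for counts but holds log2 values: the reads of a gene, with 1 added, were divided by a scaled total of that library (0.939 to 1.12 times its reads), so a linear model of log2 values was used and no count model. Whole reads were recovered by taking the lowest value of a column as 0 reads, and the largest distance from a whole number was 6.6e-09 per read. Levels are CPM of the scaled total. Member reads per library ran from 248 (Mybl2, 6.35% counting error) to 17337 (Top2a).

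Genes with at least 0.635 CPM (10 reads at the median depth) in 3 libraries and 15 reads in all were tested. The deposited log2 values were fitted with limma 3.58.1 in R 4.3.3, with a mean-variance trend and 1 mean per group over all 18 libraries. P-values were adjusted by Benjamini-Hochberg over the 15206 genes, and an adjusted p under 0.05 was called. The fit was tested on simulated data. SDs and SEs are over libraries, and "higher" and "lower" refer to the first group named. Counting error covers reads alone, which carry no molecular identifiers and so are not independent molecules. Without a strand setting, reads of genes that overlap on opposite strands cannot be told apart.

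Members and lists were chosen with earlier results of these data known. Named with values are Mki67, Top2a, Ccnb1, Cdk1, Foxm1 and Mybl2; the 2 members of each role with the smallest adjusted p in E20/p53 against E20; members called lower there; the 3 largest and 3 smallest differences in each other comparison; and, of each further list, the 2 genes with the smallest adjusted p per direction. Other members named here were singled out after their values were seen. Alternatives were other scalings, filters and pseudocounts, voom with sample weights, a fit of just the 2 groups compared, a block for replicate number, a 2-fold minimum, each library or block left out, and 6 block means.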

Additional observations from a re-analysis of the deposited data

How the results depend on the processing

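With each block averaged to 1 value, limma called 0 members in each of the 6 comparisons. In E20/p53 against p53, 0 members had an unadjusted p under 0.05 as well, where 2.76% of all genes did (those of the other comparisons are given above). Requiring 2-fold left 0 members among the tongue comparisons, where 3.7% to 8.33% of all genes were left per direction. It left 21 members higher in E20 against WT, beside 13.4% of all genes.

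In E20/p53 against E20 the 2 members called lower became 4 with voom, 1 without E20 4 to 6, 5 without E20/p53 1 to 3 and 4 without E20/p53 4 to 6. In the same order, those fits called 33.9%, 17.7%, 23.8% and 31.4% of all genes lower. Of E20/p53 against p53, the 1 member called higher became 15 with voom, 0 with just those 2 groups fitted and 3 with the replicate block. Those fits called 39.2%, 9.18% and 21.3% of all genes higher. The count became 2 and 3 without replicates 1 to 3 of E20 and of E20/p53 (16.7% and 18% of all genes). It became 13 when replicates 4 to 6 of E20/p53 were left out (31.2% of all genes). Leaving out single libraries gave 0 to 2. The 9 called lower became 16 with voom (39% of all genes) and 17 when replicates 1 to 3 of E20/p53 were left out (16.2%). With single libraries left out, 5 to 11 were called lower. Shares over all genes are not given here for fits with single libraries left out. In E20 against p53 the 0 called higher became 1 (Ccnb2) without either E20/p53 block, where 24.7% and 24.9% of all genes were called higher. The causes were not tested.

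Among members named by the rule, the sign turned for Mki67 in E20/p53 against E20 (0.52 with voom, 0.15 without E20 4 to 6, 0.44 without E20/p53 4 to 6, and -0.17 to 0.05 with single libraries left out) and in E20 against p53 (-0.06 without E20 4 to 6). It also turned for Cdk1 in E20/p53 against E20 (-0.07 with voom, -0.03 without E20 4 to 6), Foxm1 there (-0.01 without E20/p53 1 to 3), Kif20a in E20/p53 against p53 (-0.08 when replicates 1 to 3 of E20/p53 were left out) and Ect2 in E20 against WT (-0.06 with library medians made equal). Over the genes named by the rule, 1433 alternative values kept direction and call, 47 lost the call, 27 gained it and 12 turned sign. Over all 39 members, the sign turned in at least 1 alternative for 13 in E20/p53 against E20, 18 in E20/p53 against p53, 7 in E20 against p53 and 1 in E20 against WT, none of them (0) called; Cenpf, Kif15, Cdc25c and Mki67 were among those in each tongue comparison.

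The replicate block gave 26 members higher (25.8% of all genes) and 2 lower (21.9%) in E20/p53 against E20. In E20 against p53 it gave 23 lower (19.5% of all genes). Deviations from group means correlated at -0.056 to 0.074 over 21 same-numbered pairs and at -0.081 to 0.085 over 96 other pairs. In E20 and E20/p53 these deviations also hold the gap between blocks, so they cannot tell whether the numbers pair the libraries. Depth does not limit the members (248 reads or more in each library). Each group holds 1 or 2 blocks, and whether the libraries of a block are technical repeats is not known.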

Other observations

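The summed levels of replication and of mitosis transcripts differed between the E20/p53 blocks. Over 41 DNA replication genes the summed level was 3545 to 3808 CPM in E20/p53 1 to 3 and 3877 to 3931 in 4 to 6, whereas the 39 mitosis genes summed to 6887 to 6998 and 5577 to 5781 CPM. The sums do not stand for each gene: 24 mitosis genes had the higher mean in 1 to 3 and 15 in 4 to 6, and 14 and 27 of the replication genes did. Top2a, Mki67, Anln and Kif20a made up 66.7% of the net difference of the mitosis sum. Elsewhere the replication genes summed to 1536 to 1562 CPM in WT, 4159 to 4379 in p53, 3329 to 3474 in E20 1 to 3 and 3004 to 3225 in E20 4 to 6. E2f2, an activating E2F factor singled out after its values were seen, averaged 6.12 ± 0.342 CPM in WT, 36.8 ± 1.33 in p53, 9.61 ± 0.902 and 16.5 ± 1.35 in the E20 blocks, and 24.6 ± 1.42 and 7.68 ± 0.595 in the E20/p53 blocks (n = 3 in each). These values describe blocks seen in the data, and no difference between them was tested.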
